A study of Papio hamadryas with 11 samples.

Results

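The miR-26 family was represented by the mature miRNAs hsa-miR-26a-5p and hsa-miR-26b-5p, taken by name from a table of reads on known miRNAs in near-term fetal baboon liver. They are 2 of 1921 mature names in the table, of which 645 had reads and 218 passed the expression filter for testing, both members among them. Livers of 11 Papio hamadryas fetuses, taken near term (0.9 of gestation), were sequenced. Maternal obesity applied to 5 of them (3 females, 2 males), while 6 had control mothers (3 females, 3 males). All are labelled fetal liver with no treatment, genotype or cell sorting given, and the labels do not say how maternal obesity was produced. The replicate numbers below are those of the labels, which list separate samples without numbering the animals, and the spread behind each p-value is that of these samples, which may be technical.

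MicroRNAs are short RNAs that lower the translation and stability of messenger RNAs paired to their seed, the stretch near the 5′ end. The 5p arms of miR-26a and miR-26b carry the same seed and are nearly identical beyond it. In humans the genes lie in introns of the CTDSP family, which encodes small phosphatases of RNA polymerase II: miR-26a-1 in CTDSPL, miR-26a-2 in CTDSP2 and miR-26b in CTDSP1. In mouse liver, miR-26a is known to restrain genes of gluconeogenesis and fatty acid synthesis and to improve insulin sensitivity, and it is lower in the liver of obese mice and overweight people. The question here is whether its level in the liver of a fetus moves with obesity of the mother.

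Both members were abundant in every liver, and neither passed the test for a difference between fetuses of obese and of control mothers. miR-26a-5p took 3.67% to 5.30% of the reads on known miRNAs in the obese group and 3.08% to 5.31% in controls. miR-26b-5p took 0.937% to 1.21% in the obese group and 0.930% to 1.22% in controls. The widest 95% Wilson interval of any of these shares was 0.085 percentage points to either side, which covers counting error only. Together the paralogs held 5.22% ± 0.746 of reads with maternal obesity and 5.29% ± 0.863 in controls (SD, n = 5 and 6).

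The libraries of the obese group held 660569 to 767137 reads on known miRNAs and those of controls 247288 to 319919. These are sums over the rows used here, not counts of all sequenced reads. Depth in this sense separates the groups, as do the library numbers in the labels (67 to 71 and 55 to 60). A library batch and maternal obesity therefore cannot be told apart. The liver label was met by its markers: all 6 hepatocyte miRNAs of the list used here were tested, and their pooled level was 400500 to 485400 CPM (counts per 1000000 reads, without further scaling) in the obese group and 428300 to 498100 CPM in controls. On the same scale the erythroid list stood at 7017 to 14210 and 6555 to 17300 CPM, the leukocyte list at 1015 to 1281 and 1094 to 2108 CPM, and the mesenchymal list at 87940 to 145000 and 75860 to 92330 CPM. The endothelial list stood at 12190 to 18060 CPM in the obese group and 8685 to 15690 CPM in controls, and the biliary list at 720.6 to 1274 and 573 to 1556 CPM. The skeletal muscle list stood at 21.2 to 1011 and 15.3 to 65.2 CPM, with its highest value in obese replicate 2. No marker of these lists was at 0 in all libraries. Pooled levels follow the most abundant members. Lower with maternal obesity past an adjusted p of 0.05 in edgeR were miR-885-5p (hepatocyte, log2 -1.01, adjusted p = 0.0037) and miR-146a-5p (leukocyte, log2 -0.66, adjusted p = 0.0117). Higher were miR-145-3p (mesenchymal, log2 1.39, adjusted p = 0.00229) and miR-126-5p (endothelial, log2 0.46, adjusted p = 0.0476). No other tested marker passed, where 11% of all tested miRNAs did. Each was the only one to pass in its list, of 6 hepatocyte, 5 leukocyte, 6 mesenchymal and 2 endothelial markers tested. The median log2 differences of these lists were 0.01, -0.47, 0.42 and 0.31. The hepatocyte and mesenchymal lists held members in both directions, such as miR-145-5p at log2 -0.09 beside miR-145-3p. Obese replicate 5 had the highest miR-26a-5p of its group, and control replicate 4, the shallowest library of all, the lowest ratio of the paralogs. Several values that move with either are also given without it.

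miR-26a-5p, the major paralog, was at 41576, 34759, 39334, 40342 and 54999 CPM in obese replicates 1 to 5, on the scale of counts after TMM scaling that is used for single miRNAs below. In controls it was at 42929, 42147, 57218, 28057, 47747 and 37652 CPM in replicates 1 to 6. The groups overlapped throughout: the highest and the lowest of the 11 livers, replicates 3 and 4, were both controls, and 4 of the 5 obese-group livers lay within the range of 34759 to 41576 CPM. The means were 42202 ± 7603 CPM with maternal obesity and 42625 ± 9762 CPM in controls (SD, n = 5 and 6). The log2 difference was -0.01 (SE 0.16, 95% interval -0.36 to 0.34, adjusted p = 0.98, edgeR quasi-likelihood test with Benjamini-Hochberg adjustment over 218 miRNAs). The sign of so small a difference turned under several alternatives.

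miR-26b-5p, the minor paralog, was at 10392, 8870, 9826, 10407 and 12577 CPM in obese replicates 1 to 5 and at 10822, 10868, 13142, 10685, 9639 and 8992 CPM in control replicates 1 to 6. Again the groups overlapped, with the lowest liver in the obese group and the highest in controls. The means were 10414 ± 1361 and 10691 ± 1418 CPM (SD, n = 5 and 6), a log2 difference of -0.04 (SE 0.12, 95% interval -0.30 to 0.22, adjusted p = 0.881 in edgeR). The reads of both paralogs were also summed to 1 feature. Such a sum does not depend on how reads were divided between such similar sequences, provided that no read was listed under both names, which is unknown. It gave a log2 difference of 0.02 (SE 0.14, 95% interval -0.29 to 0.32, adjusted p = 0.955 in edgeR). In that fit the scaling factors were computed anew. In bulk liver, fewer cells of a type and less RNA per cell cannot be told apart.

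**Figure D1:**
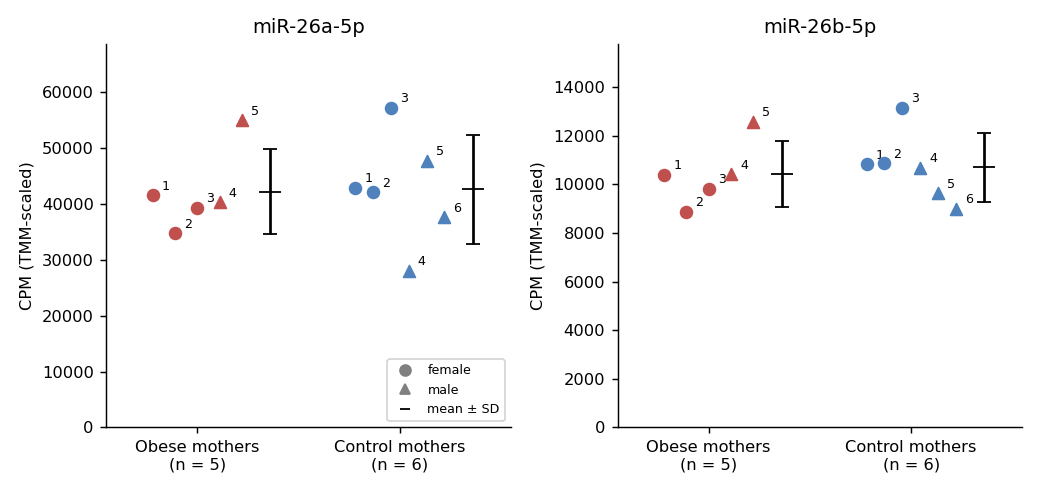
Levels of miR-26a-5p (left) and miR-26b-5p (right) in each liver, in TMM-scaled CPM on linear axes from 0; circles are female and triangles male fetuses, numbers are replicates, and bars are mean ± SD. The groups overlap for both paralogs, with means of 42202 and 42625 CPM for miR-26a-5p and of 10414 and 10691 CPM for miR-26b-5p (obese and control mothers).

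Neither of the 2 members passed the adjusted threshold of 0.05, where 24 of 218 tested miRNAs, 11%, did (10 higher and 14 lower with maternal obesity). Neither had groups without overlap, where 18 of 218, 8.26%, had. The absolute log2 difference was smaller than that of miR-26a-5p in only 4.13% of tested miRNAs and smaller than that of miR-26b-5p in 8.72%, against a median absolute log2 difference of 0.23 over all tested. A p that misses the threshold does not show that the groups are alike. The intervals bound what these livers allow: a log2 change beyond -0.36 or 0.34 for miR-26a-5p, or beyond -0.30 or 0.22 for miR-26b-5p, lies outside them.

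**Figure D2:**
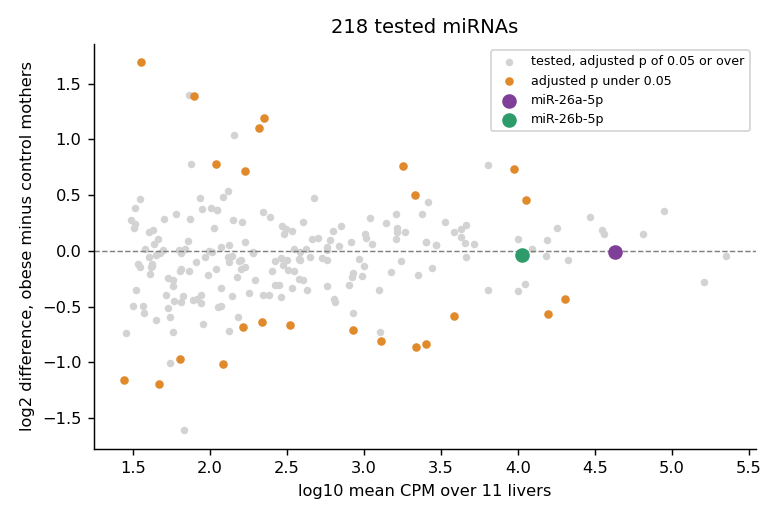
Log2 difference between obese and control mothers (edgeR, y axis) against the log10 mean CPM over 11 livers (x axis) for the 218 tested miRNAs, with the 24 past an adjusted p of 0.05 in orange. miR-26a-5p (-0.01) and miR-26b-5p (-0.04) lie on the line of no difference among the abundant miRNAs.

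miR-26a-5p was the fifth most abundant known miRNA in 9 of the 11 livers and the sixth in 2, obese replicates 1 and 2. By mean level over all livers it stood at 42433 ± 8415 CPM (SD, n = 11). Next above it were miR-148a-3p, abundant in hepatocytes, at 64696 ± 9975 CPM, and miR-143-3p, typical of mesenchymal cells, at 88754 ± 16393 CPM, and both were higher than miR-26a-5p in all 11 livers. Next below were miR-27b-3p at 36468 ± 5180 CPM and miR-10a-5p at 35209 ± 6108 CPM. miR-26a-5p exceeded each of these in 10 of 11 livers, though the ranges over livers overlapped. Levels of different miRNAs also carry the ligation preferences of the library kit, which were not measured.

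miR-26b-5p ranked 15 to 20 among known miRNAs, at 10565 ± 1329 CPM over all livers (SD, n = 11). The ranges of its neighbours over livers overlapped its own, and no test between them was run. miR-126-5p of endothelial cells (11293 ± 2523 CPM) and the erythroid miR-486-5p (11191 ± 3502 CPM) stood next above, and miR-26b-5p exceeded them in 6 and 5 of 11 livers. Between maternal groups miR-126-5p passed, at 13248 ± 1795 CPM with maternal obesity and 9663 ± 1773 CPM in controls (adjusted p = 0.0476 in edgeR). miR-30d-5p (10000 ± 663 CPM) and let-7a-5p (9954 ± 2232 CPM) stood next below, and miR-26b-5p exceeded them in 6 and 7 of 11. Other names of the miR-26 seed family were without reads: miR-1297 and miR-4465 had 0 reads in all libraries, which allows up to 3.91 CPM in the deepest library and 12.1 CPM in the shallowest (3 reads).

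The spread within groups depended on single livers. With all livers the coefficient of variation was 18.0% in the obese group and 22.9% in controls for miR-26a-5p, and 13.1% and 13.3% for miR-26b-5p. Counting error alone gives at most 0.616% and 1.15% for miR-26a-5p and 1.22% and 1.92% for miR-26b-5p, far below the spread between livers. Among the 60 miRNAs with a mean of at least 1000 CPM the median was 12.3% in the obese group and 18.2% in controls. In each group 45 of those 60 varied less than miR-26a-5p, while 35 in the obese group and 20 in controls varied less than miR-26b-5p. Without obese replicate 5 the coefficients of the obese group were 7.62% for miR-26a-5p and 7.31% for miR-26b-5p, and 11 and 9 of the 60 varied less. Without control replicate 4, control miR-26a-5p stood at 45538 ± 7446 CPM (SD, n = 5), and the control coefficients were 16.4% and 14.8%, with 49 and 46 of the 60 varying less. Without control replicate 3 they were 18.7% and 8.26%, with 30 and 7 varying less.

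The paralogs kept a nearly fixed ratio in most livers. miR-26a-5p had 4.00, 3.92, 4.00, 3.88 and 4.37 reads per read of miR-26b-5p in obese replicates 1 to 5, and 3.97, 3.88, 4.35, 2.63, 4.95 and 4.19 in control replicates 1 to 6. Of the 11 livers, 9 lay between 3.88 and 4.37, and the others were the male controls 4 and 5, below and above that band. The ratio uses only reads of the same library and does not depend on scaling. It does depend on how reads matching both paralogs were assigned, which is unknown.

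The mean ratio was 4.03 ± 0.197 with maternal obesity and 3.99 ± 0.771 in controls (SD, n = 5 and 6). On the log2 scale, with 0.5 reads added to each count, the difference was 0.04 (SE 0.13, 95% interval -0.22 to 0.37 by inversion of the test, exact two-sided permutation test over all splits of the livers, p = 0.866, smallest possible p = 0.00216). Without control replicate 4 the control mean was 4.27 ± 0.426 (n = 5), and the log2 difference was -0.08 (exact permutation test, p = 0.349). The ratio of 2.63 in that library has a 95% Wilson interval of 2.52 to 2.74, and the ratio of 4.95 in control replicate 5 one of 4.75 to 5.16, both for counting error only. In control replicate 4, miR-26a-5p was the lowest of all livers (28057 CPM) while miR-26b-5p, at 10685 CPM, was close to the control mean.

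**Figure D3:**
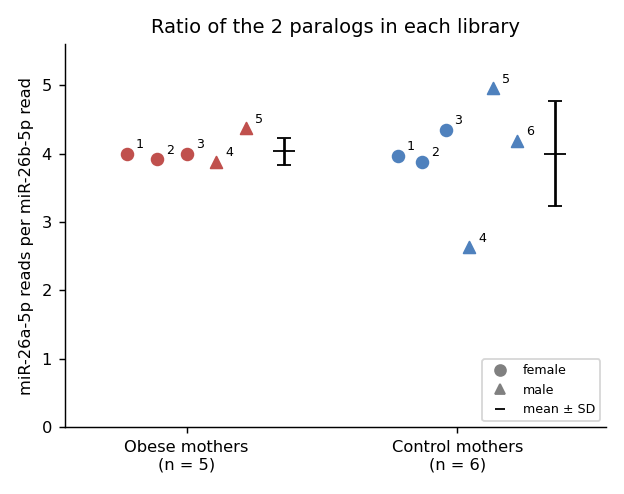
Reads of miR-26a-5p per read of miR-26b-5p in each liver, on a linear axis from 0; circles are female and triangles male fetuses, numbers are replicates, and bars are mean ± SD. Of the 11 livers 9 lie between 3.88 and 4.37, and control replicates 4 (2.63) and 5 (4.95) lie outside.

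Within each sex the ratio did not differ between maternal groups by more than the tests could show. In females it averaged 3.97 ± 0.0481 with maternal obesity and 4.07 ± 0.253 in controls, a log2 difference of -0.03 (n = 3 and 3, exact permutation test, p = 0.9, smallest possible p = 0.1). In males it averaged 4.12 ± 0.351 and 3.92 ± 1.19, a log2 difference of 0.12 (n = 2 and 3, exact permutation test, p = 0.9, smallest possible p = 0.1). Neither design can reach 0.05. The control males stood at 2.63, 4.95 and 4.19 and the obese-group males at 3.88 and 4.37. The male mean of controls thus moves with control replicate 4 (2.63), and the male difference was not computed without it. Between males and females of both maternal groups the log2 difference in ratio was -0.04 (95% interval -0.38 to 0.22, exact permutation test, p = 0.877, n = 5 and 6), and it was 0.11 without control replicate 4 (exact permutation test, p = 0.138).

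The level of miR-26a-5p ran in opposite directions with maternal obesity in the 2 sexes, though neither difference passed the adjusted threshold. In female livers it was at 41576, 34759 and 39334 CPM with maternal obesity (38556 ± 3474, SD, n = 3), against 42929, 42147 and 57218 CPM in controls (47431 ± 8484, n = 3). The female groups did not overlap, with every obese-group liver below every control, and 28.4% of tested miRNAs lacked overlap in females. The log2 difference was -0.30 (SE 0.20, 95% interval -0.73 to 0.13) and did not pass (adjusted p = 0.511 in edgeR, where 13 of 218, 5.96%, passed). In male livers miR-26a-5p was at 40342 and 54999 CPM with maternal obesity (47671 ± 10364, n = 2), against 28057, 47747 and 37652 CPM in controls (37819 ± 9846, n = 3). The male groups overlapped, and the log2 difference was 0.33 (SE 0.22, 95% interval -0.15 to 0.82, adjusted p = 0.398 in edgeR, where 9 of 218, 4.13%, passed).

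miR-26b-5p followed the same pattern. It averaged 9696 ± 769 CPM in females with maternal obesity and 11611 ± 1326 CPM in control females (n = 3 and 3), a log2 difference of -0.26 (SE 0.14, 95% interval -0.57 to 0.05, adjusted p = 0.352 in edgeR). Its female groups did not overlap, the highest obese-group female being at 10392 CPM and the lowest control female at 10822 CPM. In males it averaged 11492 ± 1535 and 9772 ± 855 CPM (n = 2 and 3), with ranges that overlapped, and a log2 difference of 0.23 (SE 0.16, 95% interval -0.11 to 0.58, adjusted p = 0.403 in edgeR). Lack of overlap between groups this small is frequent: it held for 62 of 218 tested miRNAs in females, 28.4%, and for 75 of 218 in males, 34.4%.

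The difference between the sexes in the effect of maternal obesity was itself tested. For miR-26a-5p the effect in males minus that in females was 0.63 on the log2 scale (SE 0.30, 95% interval -0.01 to 1.28, unadjusted p = 0.0547, adjusted p = 0.575 in edgeR). For miR-26b-5p it was 0.49 (SE 0.21, 95% interval 0.03 to 0.96, unadjusted p = 0.039, adjusted p = 0.575), the tenth lowest p of 218. Neither passed the adjusted threshold, and no tested miRNA did (0 of 218, 0%, with 14 at an unadjusted p under 0.05). By absolute size the difference of miR-26a-5p was above that of 79.4% of tested miRNAs and the difference of miR-26b-5p above that of 70.6%.

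The scaling factors moved with this pattern. TMM factors, which divide the counts, were 0.970 to 1.06 in obese-group females, 0.918 to 0.964 in control females, 0.963 to 0.966 in obese-group males and 1.037 to 1.102 in control males. Scaled by total counts alone, the difference between sexes was 0.36 for miR-26a-5p and 0.22 for miR-26b-5p, and the female groups overlapped for both: miR-26a-5p was then at 36710 to 40733 CPM in obese-group females and 38628 to 53076 CPM in control females. With total counts the log2 effect was also smaller within females (-0.18 for miR-26a-5p and -0.14 for miR-26b-5p) and within males (0.19 and 0.08). The sex pattern of miR-26a-5p also moved with single libraries. The difference between sexes was 0.41 without obese replicate 5 and 0.43 without control replicate 4, and the effect within males was 0.15 and 0.13 without these libraries and 0.60 and 0.55 without obese replicate 4 and control replicate 5. Within females it was -0.16 without control replicate 3. For miR-26b-5p the effect within males was 0.13 without obese replicate 5 and 0.42 without obese replicate 4.

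Over both maternal groups, neither paralog passed the test between sexes. miR-26a-5p stood at 41759 ± 10220 CPM in males and 42994 ± 7566 CPM in females (SD, n = 5 and 6), with a log2 difference of -0.04 (SE 0.17, 95% interval -0.41 to 0.32, adjusted p = 0.956 in edgeR). miR-26b-5p stood at 10460 ± 1357 CPM in males and 10653 ± 1428 CPM in females, with a log2 difference of -0.03 (SE 0.13, 95% interval -0.30 to 0.24, adjusted p = 0.956). No tested miRNA passed in edgeR between the sexes either (0 of 218, 0%, with 22 at an unadjusted p under 0.05). Signs of both members turned with total counts.

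**Figure D4:**
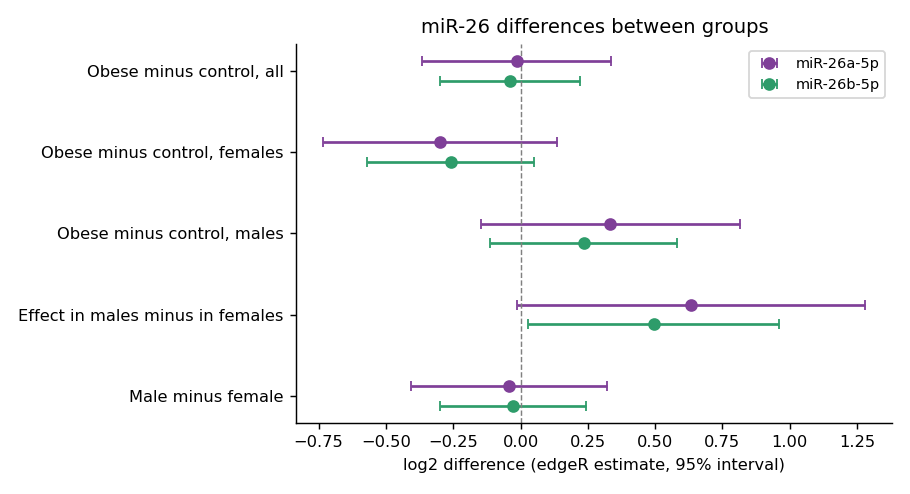
Log2 differences (points) with unadjusted 95% intervals (bars) from edgeR for miR-26a-5p and miR-26b-5p in 5 comparisons, on a linear log2 axis; positive values are higher with maternal obesity, or in males in the lowest row, and the fourth row is the effect in males minus that in females. Of the 10 intervals, that of miR-26b-5p in the fourth row (0.03 to 0.96) alone lies wholly on one side of 0, and none of the 10 passed after adjustment.

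The 3p arms, the opposite strands of the hairpins, tell the loci apart where the 5p arms cannot. The 5p reads of miR-26a are listed on the hairpins of both miR-26a-1 and miR-26a-2, and the rows differ by only 1 to 22 reads per library, at most 0.074% of the row, so the table does not divide them between the loci. miR-26a-1-3p had 6 reads in all 11 libraries (2 in the obese group and 4 in controls), miR-26a-2-3p had 21 (16 and 5) and miR-26b-3p had 81 (43 and 38). All were below the expression filter and were not tested.

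Relative to its 5p arm, the 3p arm of miR-26b had more reads than those of miR-26a. miR-26b-3p had 11.7 ± 5.13 reads per 10000 5p reads with maternal obesity and 21.1 ± 11.1 in controls (SD, n = 5 and 6). The 3p reads of both miR-26a loci together had 1.23 ± 0.709 and 1.32 ± 0.687 per 10000. The rate was higher for miR-26b in 11 of 11 libraries, a comparison chosen after its values were seen and not tested. It rests on 1 to 13 reads of miR-26b-3p and 1 to 6 reads of the miR-26a 3p arms per library, too few to compare maternal groups.

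The levels of the paralogs were compared across livers. The log2 levels of miR-26a-5p and miR-26b-5p had a Pearson r of 0.63 over 11 livers (permutation p = 0.034, adjusted p = 0.14 over 8 tests) and a Spearman rho of 0.636 (permutation p = 0.041, adjusted p = 0.14). Without the 2 livers farthest from the median of miR-26a-5p, control replicates 3 and 4, the r was 0.804 (n = 9). Both levels carry the same TMM factor of their library. With total counts the r was 0.409 (permutation p = 0.21, adjusted p = 0.42) and rho 0.609 (permutation p = 0.051, adjusted p = 0.14). On that scale the 2 farthest livers were control replicate 3 and obese replicate 5, and control replicate 4 was kept. Without these 2 the r was -0.334 (n = 9). The values of 0.804 and -0.334 leave out different livers, so their difference is not one of scaling alone. Within controls alone the r was 0.45 (n = 6, exact permutation p = 0.33) with TMM and 0.107 (exact permutation p = 0.86) with total counts. The 5 livers of the obese group are fewer than the 6 required here for a correlation. Among them both paralogs were highest in replicate 5 and lowest in replicate 2, and the ratio stayed between 3.88 and 4.37, against 2.63 to 4.95 in controls. No correlation of the paralogs passed the adjustment.

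The paralog was not among the 5 miRNAs most like miR-26a-5p across livers. Those 5 were picked as the highest of 217 values from these same livers, and likeness was not tested. Likeness was the Pearson r of log2(CPM + 1) deviations from the group means over the 11 livers, and it describes these libraries, which share depth and scaling. The most alike was miR-191-5p, an abundant miRNA (29367 CPM), with an r of 0.946. Next came miR-100-5p, clustered with let-7 and miR-125 genes (3350 CPM, 0.897), and miR-500a-3p, of an X-linked cluster in humans (712 CPM, 0.870). miR-10a-5p of a Hox cluster (0.859) and miR-455-3p (0.851) completed the 5. miR-26b-5p stood at place 24 of 217, with an r of 0.634. The same 5 stood at places 1 to 5 with total counts, where miR-26b-5p fell to place 37 (r 0.414).

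The miRNAs most like miR-26b-5p were others. miR-17-5p led with an r of 0.790, followed by miR-455-3p (0.734), miR-182-5p (0.734), miR-20a-5p (0.672), which shares a cluster with miR-17, and miR-29a-3p (0.656). miR-26a-5p stood at place 6 of 217 (0.634), and at place 21 with total counts (r 0.414). Only miR-182-5p among these neighbours passed between maternal groups (log2 1.19, adjusted p = 0.00648 in edgeR).

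miR-26 was set beside 26 other miRNAs with reported roles in insulin signalling and glucose handling, of which 21 were tested. Past the adjusted threshold of 0.05, 2 of these 21 were lower with maternal obesity and 0 were higher, against 11% of all tested miRNAs past it in either direction. The median log2 difference of the list was 0.01 (-0.05 over all tested). The 2 that passed were miR-378a-3p and miR-185-5p. The host gene of miR-378a-3p, PPARGC1B, encodes a coactivator of mitochondrial genes. miR-378a-3p was at 12372 ± 2444 CPM with maternal obesity and 18339 ± 1753 CPM in controls (log2 -0.57, adjusted p = 0.0122 in edgeR). miR-185-5p, known to act on cholesterol uptake and synthesis, was at 16.6 ± 5.00 and 36.9 ± 13.9 CPM (log2 -1.16, adjusted p = 0.0213 in edgeR).

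The 3 most abundant of the list did not pass. The hepatocyte miRNA miR-122-5p stood at 145358 ± 31060 CPM with maternal obesity and 176125 ± 29820 CPM in controls (log2 -0.28, adjusted p = 0.3). miR-143-3p, reported in mice to impair insulin signalling, stood at 100964 ± 16830 and 78579 ± 6120 CPM (log2 0.36, adjusted p = 0.0534), and miR-148a-3p at 68474 ± 12460 and 61547 ± 6974 CPM (log2 0.15, adjusted p = 0.475). Against these, the log2 differences of miR-26a-5p and miR-26b-5p, -0.01 and -0.04, were closer to 0. Of the 26 listed, miR-802 had no reads.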

How the data were processed

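Small RNA of 11 fetal livers was sequenced; per the labels' protocols, total RNA came from a Qiagen miRNeasy kit and libraries from the Illumina TruSeq small RNA kit, with 12 libraries pooled per lane. The authors deposited unscaled read counts for each pair of mature miRNA and precursor, and a normalised signal that the deposited values show to be reads per 1000000 over the 2234 listed rows. The deposited workbook is named for miRDeep2. Human build hg18 is listed in the submitters' processing notes and the miRNA names are human, although the reads are from baboon. The sources used here do not give the mismatch limit or the strand handling. How reads matching both paralogs were assigned is therefore unknown. The table lists every row again after the last (4468 rows), and each was used 1 time. For a name on several precursors only the row with most reads was kept.

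Tests on counts ran in edgeR 4.0.16 under R 4.3.3, with TMM scaling, its default filter (218 miRNAs, at least 99.62% of each library's reads) and the quasi-likelihood test, with Benjamini-Hochberg adjustment over all 218. Maternal groups were compared with no covariate, sexes within a model of 4 condition-by-sex means, and males with females in a model of condition and sex. Intervals of log2 differences are the estimate and SE with the quantile of the test's own degrees of freedom, unadjusted. DESeq2 1.42.0, limma-voom 3.58.1 and other settings were alternatives. Single ratios used exact permutation tests, and the relation of the paralogs 100000 resamples. The fits were tested on simulated data. Named miRNAs are the members, their 3p arms and seed relatives, neighbours by level, the 5 most alike, and the insulin list's 3 most abundant and those past the threshold. The members and lists were chosen with earlier results of these data known. Mature sequences, genome coordinates and the table of predicted miRNAs were not used here.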

Additional observations from a re-analysis of the deposited data

Results flagged for a closer look

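In the obese group, replicate 5, a male, had the highest share of reads on miR-26a-5p, 5.30%, and the highest ratio of miR-26a-5p to miR-26b-5p, 4.37. Each lay farther from the next of the 5 livers than 0.710 of the group's range, the 95% critical value for 5 samples. Of 12 such checks on the paralogs (6 measures in 2 groups) these 2 were past their limit, and chance gives about 1 in 20. The 2 are not independent, since both use the miR-26a-5p reads of that library. Without it the obese group stood at 39003 ± 2974 CPM of miR-26a-5p and 9874 ± 722 CPM of miR-26b-5p (TMM-scaled, SD, n = 4), and both levels in replicate 5 (54999 and 12577 CPM) lay within the control range.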

How the results depend on the processing

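Neither paralog, nor their sum, passed the threshold between maternal groups under any of the alternatives run or without any library, while signs turned under some. The log2 difference of miR-26a-5p was positive with RLE factors (0.022), DESeq2 (0.022), limma-voom (0.0009), the most abundant miRNA left out (0.025), no filter (0.067), precursor rows summed (0.034), thinning (0.028) and the authors' normalised values (0.013, exact permutation test, added after seeing the data). That of miR-26b-5p was positive with no filter (0.039) and precursor rows summed (0.011). The sum was negative with total counts (-0.019), the most abundant miRNA left out (-0.024), thinning (-0.016) and the 10 livers with numbers in both groups (-0.0575 without a block). Leaving out 1 library gave -0.124 to 0.0983 for miR-26a-5p, -0.0823 to 0.0392 for miR-26b-5p, -0.145 to 0.0967 for the sum, and 16 to 26 miRNAs past the threshold. It gave -0.0769 to 0.106 for the log2 ratio between maternal groups and -0.121 to 0.108 between sexes, and in females alone the log2 ratio differed by -0.0312. Between sexes, total counts gave 0.025 and 0.044 and no filter 0.012 and 0.029 for miR-26a-5p and miR-26b-5p, and leaving out 1 library -0.157 to 0.111 and -0.0851 to 0.0321. Within each sex and for the difference between sexes RLE factors, total counts, no filter and leaving out 1 library were run, and no sign turned under these: leaving out 1 library gave -0.38 to -0.16 and -0.31 to -0.18 in females, 0.13 to 0.60 and 0.13 to 0.42 in males, and 0.41 to 0.85 and 0.36 to 0.64 for the difference. The cause of these turns was not tested.

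Whether the replicate number pairs livers was not tested. Deviations of same-numbered libraries correlated at 0.305, -0.0506, 0.0794, -0.16 and 0.183, and 4 of 10 libraries correlated best with their own number. Replicates 1 to 3 are female and 4 and 5 male in both groups, so the number also follows sex. These values do not decide whether livers are paired. With a replicate block the log2 differences were -0.0232 for miR-26a-5p, -0.0803 for miR-26b-5p and -0.0466 for the sum, and 17 miRNAs passed, against 20 in the same 10 livers without it. The ratio differed by 0.0578 on the log2 scale over the 5 pairs.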
